A study of Mus musculus with 6 samples.

Results

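The Sox, Pax and T-box genes are 3 families of transcription factor genes, and their chromatin was read here from a map of mouse hematopoietic stem cells (HSCs). They were taken by symbol from the RefSeq protein-coding genes: every numbered Sox gene, every numbered Pax gene except Pax5, every numbered Tbx gene, and Eomes, Tbr1 and T. This gave 43 genes of 21779 protein-coding genes on the map, made up of 19 Sox, 8 Pax and 16 T-box genes. The study asked how the chaperone HIRA, which deposits the histone variant H3.3, acts in blood formation. Its 6 libraries were 2 H3.3 ChIP libraries from HIRA knockout HSCs, 2 H3.3 ChIP libraries from wild-type HSCs, 1 knockout input and 1 wild-type input. The mice were C57BL/6, and poly(I:C) was given to animals of both genotypes, in 2 doses of 20 ug each. It induced the conditional Hira deletion in the blood system, and HSCs were taken from bone marrow at 7 days from the first dose. The driver of the deletion and the age of the mice are not stated. Chromatin was cut with micrococcal nuclease, and H3.3 nucleosomes were pulled down with a rat monoclonal antibody.

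What was read here is 1 map that cuts the genome into 18 numbered states in bins of 200 bp. Only its name links it to the wild-type H3.3 libraries. It holds a state per segment and no counts, so the depth behind it is unknown, and it has no replicates, so no difference below carries a test. The knockout was not analysed here. The state numbers have no names, and the sources used here do not give the tracks that went into the map, so the states are described by where they lie. Marker genes were set beside the label of the cells. This is not an independent check, because states 3 to 6 were grouped with earlier results of these data known. Of 17 HSC genes, such as Gata2, Mecom and Kit, 15 had an end of the gene record in states 3 to 6, where 47.6% of all protein-coding genes had one. The counts were 0 of 6 erythroid genes, 0 of 6 T and NK cell genes, 1 of 4 B cell genes, 0 of 5 neutrophil genes and 2 of 5 endothelial genes. An end in states 9 to 11 was found in 1 of the HSC genes, Erg. It was also found in 3 T and NK cell genes, 1 neutrophil gene and no gene of the other lists, beside 23.9% of all protein-coding genes. States 3 to 6 cover 1.13% of the map and states 9 to 11 cover 13.5%, nearly all of it state 11 (13%), with 0.182% in state 9 and 0.308% in state 10. State 18 covers 55%.

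Sox proteins bind DNA through an HMG box, Pax proteins through a paired domain and T-box proteins through the domain that the Brachyury gene, T, gave its name to. All 3 families set cell identity in the embryo: Sox genes in the neural tube, cartilage, gonad and vessels, Pax genes in eye, kidney, thyroid, muscle and vertebrae, T-box genes in mesoderm, heart and limb. Most are known for roles outside the blood, but some act in blood or its vessels, among them Sox4 in B cell progenitors, Sox6 in red cells, Sox17 in fetal HSCs, and Tbx21 and Eomes in T and NK cells.

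In the map, 34 of the 43 genes (79.1%) had at least 1 end of the gene record in states 9 to 11, beside 23.9% of all protein-coding genes. The 34 were 13 of 19 Sox genes, 8 of 8 Pax genes and 13 of 16 T-box genes. Both ends lay in these states in 21 genes (48.8%), beside 7.56% of all genes. An end in states 3 to 6 was found in 5 genes (11.6%), beside 47.6% of all genes. These were Sox4, Sox5, Sox12, Sox13 and Tbx10, so 4 of the 5 are Sox genes and none is a Pax gene. With 1 map, these shares are a description. Tbx22 alone had both ends in state 18, which was so for 13.6% of all genes.

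The surroundings of each gene were read in a window of the gene record with 10 kb on each side. States 9 to 11 filled a median of 56.7% of the window (quartiles 24.7% and 90.7%), beside a median of 0.965% over all protein-coding genes. The family medians were 45.0% for Sox, 86.3% for Pax and 56.0% for T-box genes. At least 50% of the window was in these states in 24 genes, or 8 Sox, 6 Pax and 10 T-box genes, which is 55.8% of the 43 beside 7.31% of all genes. At least 90% was in these states in 11 genes (Sox1, Sox2, Sox9, Sox14, Sox21, Pax1, Pax2, Pax3, Pax9, Eomes and Tbx3), beside 1.51% of all genes. At the other pole, 5 genes had no bin of these states in the window (Sox4, Sox12, Sox15, Tbx6 and Tbx19), which was so for 48.7% of all genes. A window free of states 3 to 6 was seen in 30 of the 43, made up of 10 Sox, 8 Pax and 12 T-box genes, beside 36.9% of all genes.

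**Figure D1:**
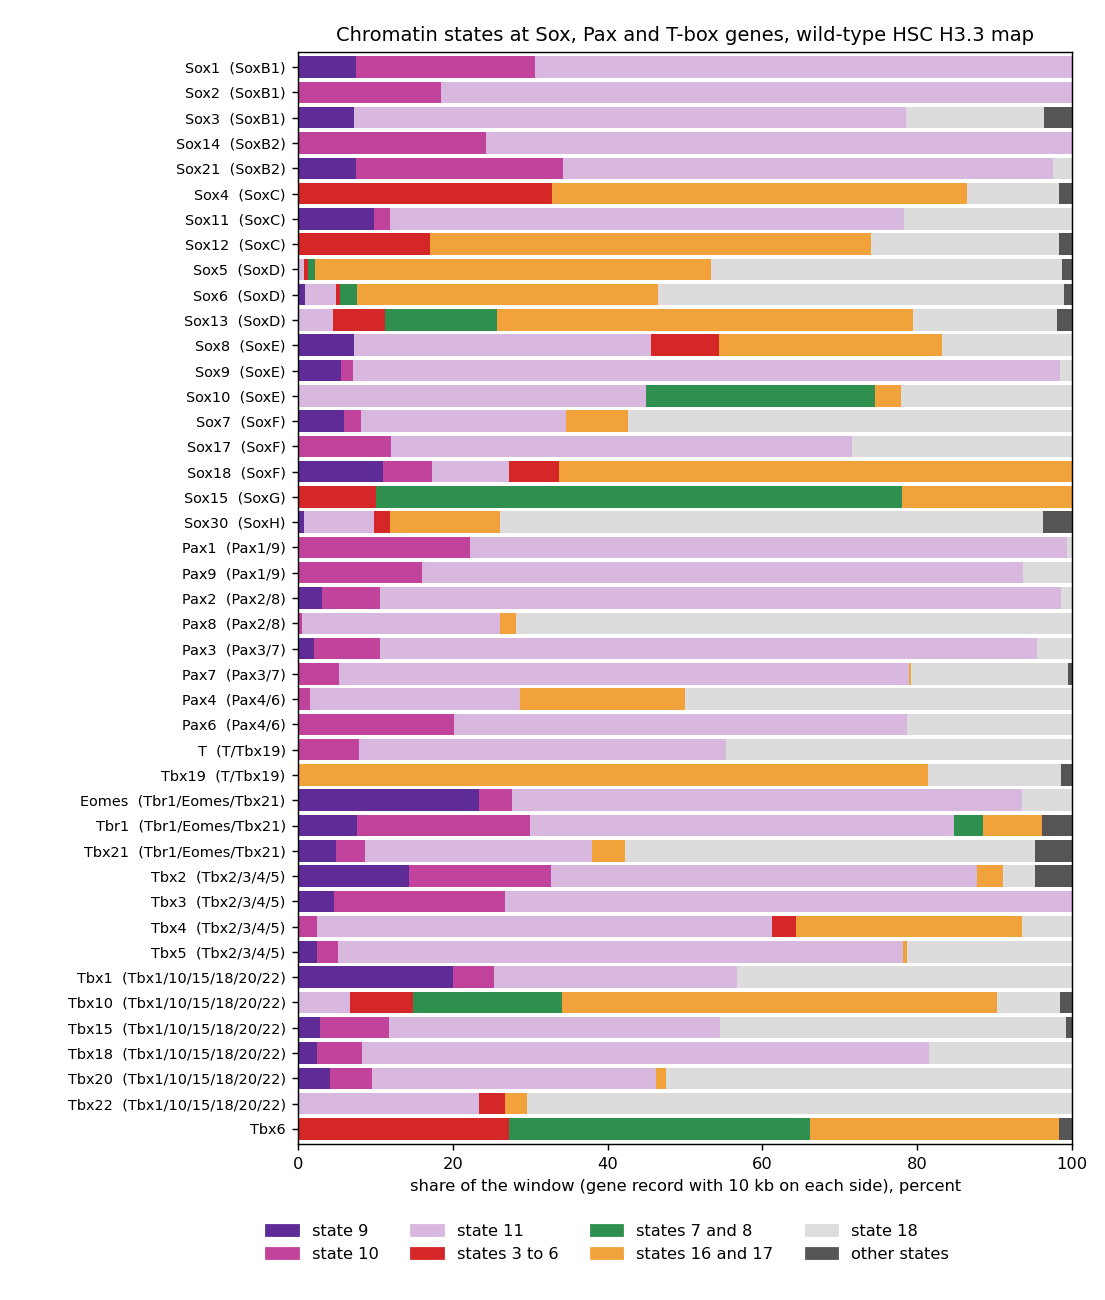
Share of each gene's window (the gene record with 10 kb on each side, horizontal axis, percent) in each class of states, 1 bar per gene, ordered by family and subgroup on the vertical axis. Purple shades (states 9 to 11) fill at least 50% of the bar in 24 of 43 genes, and red (states 3 to 6) appears in 13.

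The SoxB groups had the highest median window shares of states 9 to 11 among the Sox groups. Sox1, Sox2 and Sox3 keep neural progenitors undifferentiated, and Sox2 also holds the pluripotent state. Their windows were in states 9 to 11 over 100% (Sox1), 100% (Sox2) and 78.6% (Sox3). Sox14 and Sox21, which counter the SoxB1 proteins as neurons form, had 100% and 97.5%. None of these 5 windows held a bin of states 3 to 6. Sox1, on chromosome 8 from 12395519 to 12399555, began in state 9, in a run of states 9 to 11 that reached 70.4 kb around a record of 4.04 kb. Its promoter, the 250 bases before the start from RefSeq (GRCm38.p6), is shown because it had the most CpG of all promoters of the 3 families whose start lay in states 9 to 11. It covers chr8:12395269-12395518 on the plus strand and holds 29 CpG, printed in capitals.
Sox1: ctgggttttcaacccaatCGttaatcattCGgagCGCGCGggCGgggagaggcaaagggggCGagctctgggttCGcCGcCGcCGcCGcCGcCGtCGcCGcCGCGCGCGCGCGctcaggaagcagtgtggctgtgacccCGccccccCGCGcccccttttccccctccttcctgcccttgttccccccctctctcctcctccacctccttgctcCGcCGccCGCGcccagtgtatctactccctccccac

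The 3 SoxC genes fell on both sides. Sox4 is needed for early B cell development, Sox11 acts in developing neurons, and Sox12 is broadly expressed in the embryo. Sox4, on chromosome 13 from 28948919 to 28953699, had its ends in states 3 and 5, and its whole record lay in states 3 to 6. Its window held 8.2 kb of these states (32.8%), the largest share of the 43 genes, and no bin of states 9 to 11. Beyond the record, 2.6 kb of that total lay in the flanks, including a state 4 segment of 2 kb upstream of the start at chr13:28957801-28959800, with no other protein-coding gene in the window. Sox12, on chromosome 2 from 152393611 to 152398046, had its start in state 4 and 4.2 kb of states 3 to 6 (17.1% of the window), also with none of states 9 to 11. Sox11, on chromosome 12 from 27334268 to 27342718, had its ends in states 11 and 9 and its start in state 9, with 78.3% of the window in states 9 to 11 and none in states 3 to 6. The promoters of the trio are set side by side as closely related genes that lay in different states, from 250 bases before the start to the base before it, all on the minus strand and with each CpG in capitals. They cover chr13:28953700-28953949 (Sox4), chr2:152398047-152398296 (Sox12) and chr12:27342719-27342968 (Sox11).
Sox4: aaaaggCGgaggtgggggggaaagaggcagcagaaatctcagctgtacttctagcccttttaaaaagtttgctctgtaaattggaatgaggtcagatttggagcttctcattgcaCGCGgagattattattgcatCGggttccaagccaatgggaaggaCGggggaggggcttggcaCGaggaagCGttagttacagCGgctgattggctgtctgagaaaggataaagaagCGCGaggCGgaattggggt
Sox12: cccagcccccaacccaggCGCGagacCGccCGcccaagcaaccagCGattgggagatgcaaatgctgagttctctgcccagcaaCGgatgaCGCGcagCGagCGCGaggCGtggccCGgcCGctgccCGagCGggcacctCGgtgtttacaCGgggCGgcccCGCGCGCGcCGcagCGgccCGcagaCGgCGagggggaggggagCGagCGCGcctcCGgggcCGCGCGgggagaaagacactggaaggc
Sox11: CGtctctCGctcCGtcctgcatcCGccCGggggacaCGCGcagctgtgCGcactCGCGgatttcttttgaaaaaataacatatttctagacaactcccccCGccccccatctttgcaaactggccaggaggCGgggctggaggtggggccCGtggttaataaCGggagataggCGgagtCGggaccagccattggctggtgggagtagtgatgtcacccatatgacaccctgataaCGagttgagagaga

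These promoters held 11 CpG (Sox4), 35 CpG (Sox12) and 17 CpG (Sox11). The gene in states 9 to 11 therefore lay between the other two in CpG.

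The SoxD genes Sox5, Sox6 and Sox13 had the smallest shares of states 9 to 11 among Sox genes with any, at 0.678%, 4.81% and 4.49% of the window. Sox5 and Sox6 drive cartilage formation together with Sox9, Sox6 also silences embryonic globin in red cells, and Sox13 acts in gamma delta T cells. Sox13 began in state 3, with 4.2 kb of states 3 to 6 at the start and some 6 kb into the gene. Sox5 is the longest record, at 954 kb. Sox5 lies on the minus strand, so its right end is the 5′ end of the record, and that end lay in state 6. A second block of states 3 and 5 lay inside the gene at chr6:144208401-144210600. The start that RefSeq lists for Sox5 is far inside the record, at position 143947106 of chromosome 6, and lay in state 18. Sox6, at 570 kb, had its right end in state 9. Around its first start, state 9 segments of 1.8, 1.6 and 1.6 kb stood among states 9 to 11, broken by a state 4 segment of 0.8 kb at chr7:116032601-116033400. Sox6 has 6 listed starts, of which 1 was in state 9 and 1 in state 11, with the other 4 in states 17 and 18.

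The SoxE genes act in neural crest, cartilage and testis, and all 3 had an end in states 9 to 11. Sox9, which specifies cartilage and testis, had 98.4% of its window in these states. Sox10, a neural crest and glial gene, had 45.0%, next to 29.5% in states 7 and 8, with the gene Polr2f inside its window. Sox8 had 45.6% and began in a state 9 segment of 1.8 kb that bordered state 4 on its upstream side. The SoxF genes Sox7, Sox17 and Sox18 work in endothelium, and each had an end in state 9 or 10. Sox17, which fetal HSCs need, had 71.6% of its window in states 9 to 11, Sox7 had 34.6%, and Sox18, a gene of lymphatic vessels, had 27.3%. Neither Sox7 nor Sox17 had a bin of states 3 to 6 in the window, and the 1.4 kb of Sox18 all lay within 2 kb of an end of the neighbour Tcea2. The 3 endothelial Sox genes thus had no end in states 3 to 6, unlike Sox4.

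Sox15 and Sox30 each stand alone in their groups. Sox15, on chromosome 11 from 69655037 to 69656727, had both ends and its start in state 8, and states 7 and 8 filled 67.9% of a window that also holds Fxr2, Mpdu1 and Cd68. Its 2.2 kb of states 3 to 6 all lay within 2 kb of an end of Mpdu1 or Cd68. Sox30, a spermatid gene, began in a state 4 segment of 0.8 kb beside a state 9 segment of 0.4 kb, while state 18 filled 70.2% of its window.

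No Pax window held a bin of any state from 3 to 8, over all 8 genes. Pax2, the kidney and midbrain gene, had 98.6% of its window in states 9 to 11 and Pax8, the thyroid gene of the same subgroup, had 26.1%, with 71.8% in state 18. Pax1 and Pax9, which form vertebrae and pharyngeal organs including the thymus, had 99.4% and 93.7%. Pax3, of neural crest and muscle, had 95.5%, and Pax7, of muscle stem cells, had 78.9%. Pax6, the eye regulator, had 78.7%, and Pax4, of pancreatic beta cells, had 28.7%. Pax4 and Pax8 were thus the Pax genes under 50%. The proportions of these states also varied between the families, which was not tested. State 9 was at no Pax end, against 8 Sox genes and 6 T-box genes, a total of 14 of 43 (32.6%) beside 7.89% of all genes. At Pax3, however, a state 9 segment (chr1:78195801-78197000) stopped just short of the right end of the record, at 78197136. The contrast at the ends can thus turn on a single bin. State 10 was at an end in Pax1, Pax2 and Pax9, among 8 of 43 genes (18.6%) beside 1.51% of all. Over the 8 Pax windows together, state 10 took 8.61% of bases, which is 28.0 times its share of the map, and state 9 took 1.02%, or 5.57 times. Over the 19 Sox windows, state 10 took 1.36% (4.42 times) and state 9 took 1.00% (5.49 times). The windows of Sox5 (974 kb) and Sox6 (590 kb) weigh heavily in these Sox shares. Over the 16 T-box windows, state 10 took 6.42% (20.9 times) and state 9 took 4.31% (23.7 times). As a mean over genes, state 10 took 6.15% of the window in Sox, 10.2% in Pax and 6.82% in T-box genes. For state 9 these means were 3.31%, 0.639% and 5.41%. The promoter at the first listed start of Pax2, which lay in state 10, is shown as an example of a start in that state. It covers chr19:44746351-44746600 on the plus strand and holds 5 CpG, in capitals.
Pax2: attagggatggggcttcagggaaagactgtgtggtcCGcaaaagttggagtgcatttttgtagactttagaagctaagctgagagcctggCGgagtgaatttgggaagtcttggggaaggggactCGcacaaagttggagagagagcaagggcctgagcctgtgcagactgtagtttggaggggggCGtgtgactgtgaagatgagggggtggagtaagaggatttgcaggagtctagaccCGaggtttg

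Pax2 has 3 listed starts, in states 10, 10 and 9, and their promoters held 5, 20 and 25 CpG.

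Among the T-box genes, the group of Tbx2, Tbx3, Tbx4 and Tbx5, which pattern heart and limb, had an end in states 9 to 11 in all 4 and window shares of 87.8%, 100%, 61.2% and 78.2%. These 4 lie as 2 pairs of neighbours. Tbx3 and Tbx5 are 112 kb apart on chromosome 5 and Tbx2 and Tbx4 are 44.4 kb apart on chromosome 11, with no protein-coding gene between them in either pair. States 9 to 11 filled 68.0% of the stretch between Tbx3 and Tbx5 and 73.9% of that between Tbx2 and Tbx4, and states 3 to 6 filled 0% of both. The runs at the 2 genes were nevertheless separate, with 57.4 kb between those of Tbx3 and Tbx5 and 20.4 kb between those of Tbx2 and Tbx4.

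The T-box genes of lymphocytes, Eomes and Tbx21, had both ends in states 9 to 11, but their window shares differed. Eomes, a gene of mesoderm and of NK and CD8 T cells, had 93.6% of its window in states 9 to 11. Tbr1, of cortical neurons, had 84.7%. Tbx21 encodes T-bet, the regulator of Th1 and NK cells, and had 38.0%, with 52.9% in state 18. All 3 windows were free of states 3 to 6. State 9 took 23.4% of the Eomes window, the largest share of the 43 genes, in segments that included 3.4 kb across the start and 2.4 kb beyond the 3′ end. Tbx21, on chromosome 11 from 97098007 to 97115331, began in state 9 within a run of 7.8 kb. Its promoter is shown as that of a lymphocyte gene with its start in state 9. It covers chr11:97115332-97115581 on the minus strand and holds 16 CpG, in capitals.
Tbx21: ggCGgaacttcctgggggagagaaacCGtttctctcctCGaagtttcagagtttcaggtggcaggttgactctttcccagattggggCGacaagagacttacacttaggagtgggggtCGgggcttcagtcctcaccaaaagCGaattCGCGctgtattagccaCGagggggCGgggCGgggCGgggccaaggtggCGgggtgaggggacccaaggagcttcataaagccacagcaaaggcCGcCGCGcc

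T, the founding T-box gene of mesoderm, had 55.3% of its window in states 9 to 11 and began in state 11. Tbx19, of the same subgroup and active in pituitary corticotrophs, had none. It began in state 16, and states 16 and 17 filled 81.4% of its window, the largest such share of the 43. Tbx1, a gene of pharyngeal arches and the outflow tract, had 56.7% and state 9 segments of 2.8 kb across its start and 2 kb at its 3′ end. Tbx18, of the sinus node and ureter, had 81.6%, Tbx15, of skeleton and skin, had 54.5%, and Tbx20, of the heart, had 46.2%. Tbx10 had 6.67%, in a segment of 1.8 kb at its start, and state 5 at its other end, which lies near Nudt8. Of its 2.2 kb of states 3 to 6, 1.8 kb lay in the flank within 2 kb of an end of a neighbouring gene. Tbx22, a palate gene on the X chromosome, had 23.3%, and its 3 listed starts lay in states 18, 11 and 6. Tbx6, of the somites, sits among Gdpd3, Ypel3, Ppp4c and Aldoa. It began in state 17 with none of states 9 to 11, and its 6.6 kb of states 3 to 6 (27.3% of the window) all lay in the flanks and within 2 kb of an end of a neighbour.

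States 3 to 6 thus came within 10 kb of 13 of the 43 genes. They touched the record itself in 8 (Sox4, Sox5, Sox6, Sox12, Sox13, Sox30, Tbx10 and Tbx22) and lay only in the flank in 5 (Sox8, Sox15, Sox18, Tbx4 and Tbx6). Of these 5, the stretches at Sox15, Sox18 and Tbx6 lay fully, and that at Sox8 for 1.6 of 2.2 kb, within 2 kb of an end of another protein-coding gene. At Tbx4 they did not. This split was not counted over all protein-coding genes, so it only describes the 13. No other protein-coding record reached into the window in 30 of the 43 genes (69.8%), beside 38.1% of all genes, while Tbx6 and Tbx10 had 4 such neighbours each and Sox15 had 3.

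A start of transcription could be matched in RefSeq for 31 of the 43 genes. Sox3, Sox7, Sox9, Sox10, Sox17, Sox18, Pax3, Pax4, Tbx2, Tbx3, Tbx5 and Tbx15 were not matched. The start lay in states 9 to 11 in 22 of 31 (71%), beside 18.4% of 17492 protein-coding genes with a start. The 22 were 7 of 13 Sox, 6 of 6 Pax and 9 of 12 T-box genes. By state, 8 starts lay in state 9 (25.8%, beside 7.8% of all starts), 3 in state 10 (9.68%, beside 0.526%) and 11 in state 11 (35.5%, beside 10.1%). Sox4, Sox12, Sox13 and Sox30 began in states 3 to 6, which is 12.9% beside 50.3% of all starts. The starts used for Sox5 and Tbx22 lay in state 18 (19.3% of all starts). For Sox5 that start is internal, and the 5′ end of its record lay in state 6. Tbx6 and Tbx19 began in states 16 or 17 (7.55%), and Sox15 in state 8 (0.692% for states 7 and 8).

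**Figure D2:**
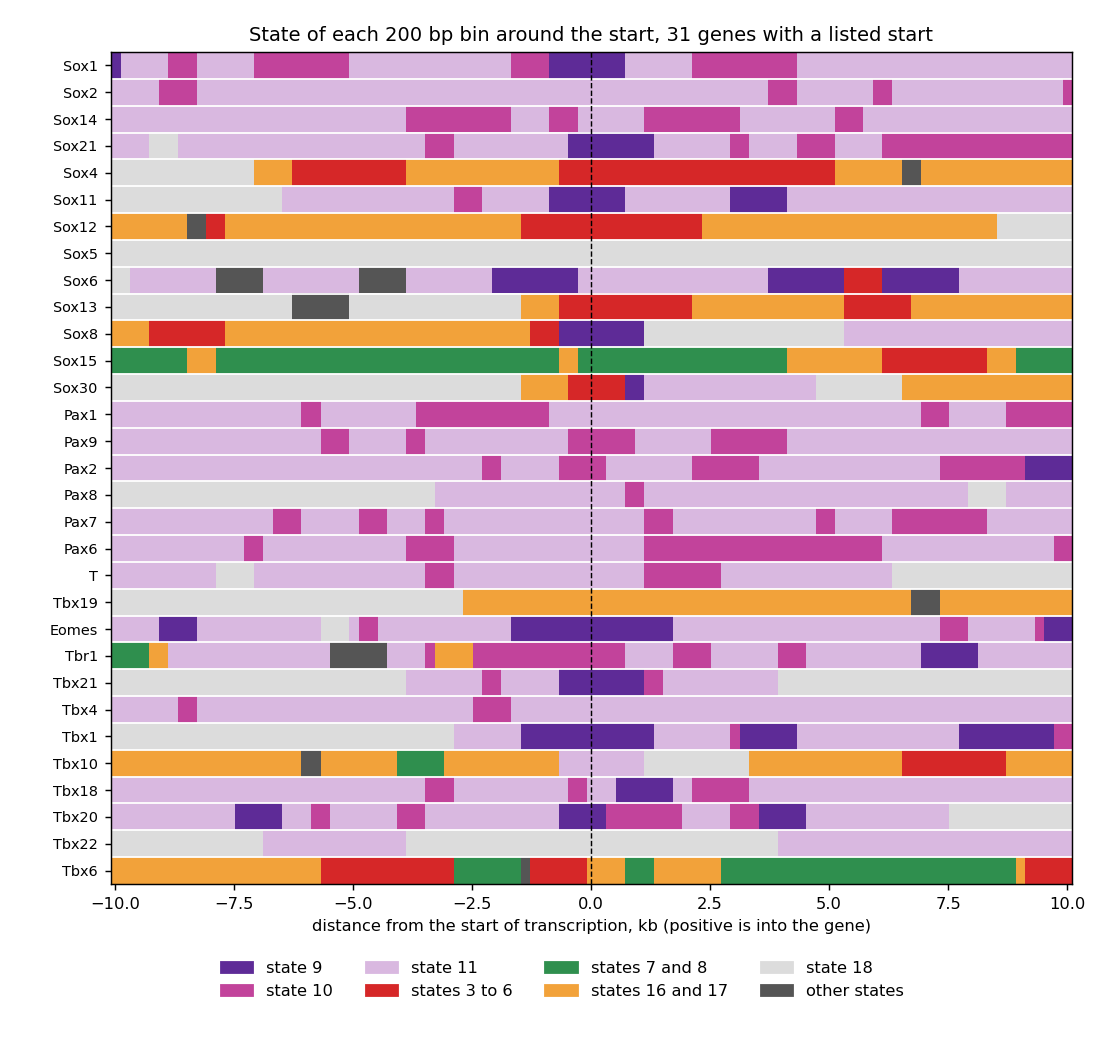
State of each 200 bp bin from 10 kb before to 10 kb after the start of transcription (horizontal axis, kb), 1 row for each of the 31 genes with a listed start. Dark purple (state 9) lies on the dashed line at the start in 8 rows and red (states 3 to 6) in 4, while state 10 (magenta) is scattered on both sides.

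States 9 and 10 were next placed by distance from the start. Of 13 genes with a state 9 bin within 10 kb of the start, 11 had one at the start or within 1 kb of it, as in Sox1, Sox8, Sox11, Sox21, Eomes, Tbx1, Tbx20 and Tbx21, whose start bin was itself in state 9. That is 84.6%, beside 78.5% of all genes with state 9 within 10 kb. For state 10, 19 genes had a bin within 10 kb and 9 had one within 1 kb (47.4%), beside 32.6% of all such genes. Of all the state 9 bins within 10 kb, 47.9% lay within 1 kb of the start, beside 64.2% over all genes, and of the state 10 bins 11.1% did, beside 14.4%. Sox14, for example, began in state 11 with state 10 on both sides, 2.8 kb in all upstream and 2.6 kb downstream. Summed over the 31 genes, state 9 took 10.6 kb before the start and 20.4 kb after it, and state 10 took 24 kb before and 36.6 kb after. The longest state 9 segments in the 43 windows were those of Eomes (3.4 and 2.4 kb), Tbx1 (2.8 kb) and Sox18 (2.4 kb), with 2 kb at both Tbx1 and Tbx2. The longest state 10 segments were 5.2 kb in Tbx15, 5 kb in Pax6, 4.6 kb beside Sox21, and 3.2 kb at both Pax3 and Tbr1.

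**Figure D3:**
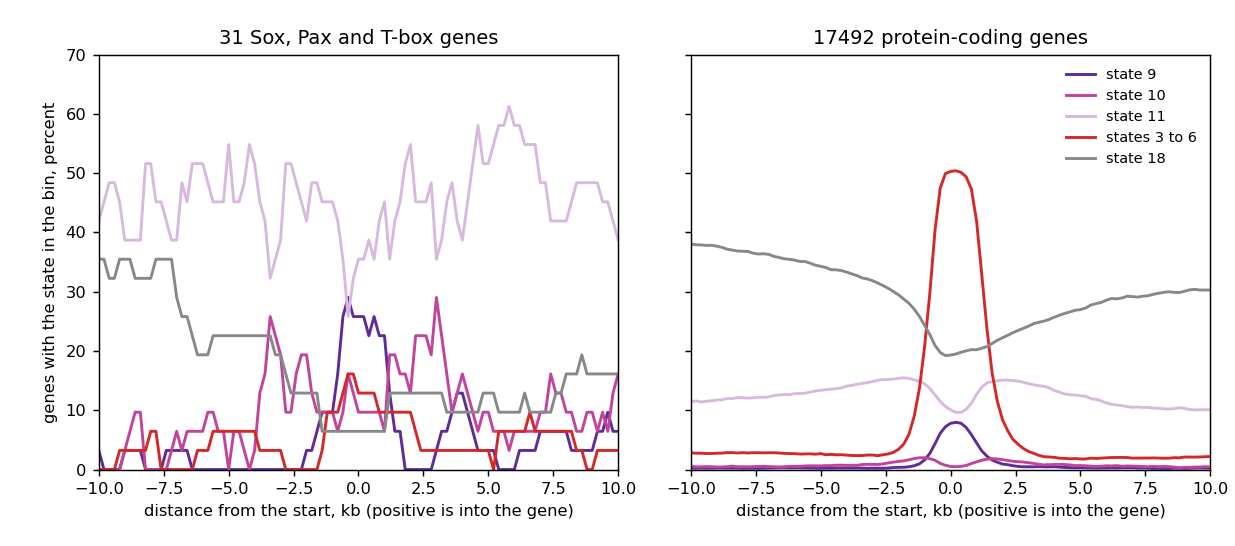
Percent of genes (vertical axis) with a given state in each 200 bp bin by distance from the start (horizontal axis, kb), for the 31 Sox, Pax and T-box genes on the left and all 17492 protein-coding genes with a listed start on the right. At the start the left panel has 35.5% in state 11 and 12.9% in states 3 to 6, and the right panel has 10.1% and 50.3%; each gene moves the left curves by about 3.23 percentage points.

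Adjoining segments of states 9, 10 and 11 form runs, and 37 of the 43 genes (86%) were touched by one, beside 34.5% of all protein-coding genes. Sox4, Sox12, Sox13, Sox15, Tbx6 and Tbx19 were not. The longest run at a gene had a median of 18.2 kb (quartiles 6.3 and 35.6 kb) and was 9.4 kb at the median for Sox, 47.4 kb for Pax and 19 kb for T-box genes, while the median over all protein-coding genes was 0 kb. Runs of at least 20 kb were found at 18 genes (41.9%), beside 3.74% of all genes, and runs of at least 50 kb at 8 genes, beside 0.684%. The 8 were Pax2 with 177 kb, Tbx5 with 101.4 kb, Pax7 with 76.2 kb, Tbx3 with 71 kb, Sox1 with 70.4 kb, Pax3 with 58.2 kb, Sox2 with 56.8 kb and Pax6 with 55 kb. All 8 are among the longest 100 of the 101627 runs in the map, whose median is 2.6 kb, and the Pax2 run ranks 2. It spanned chr19:44618201-44795200 and so covered the region before the gene and part of its record.

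**Figure D4:**
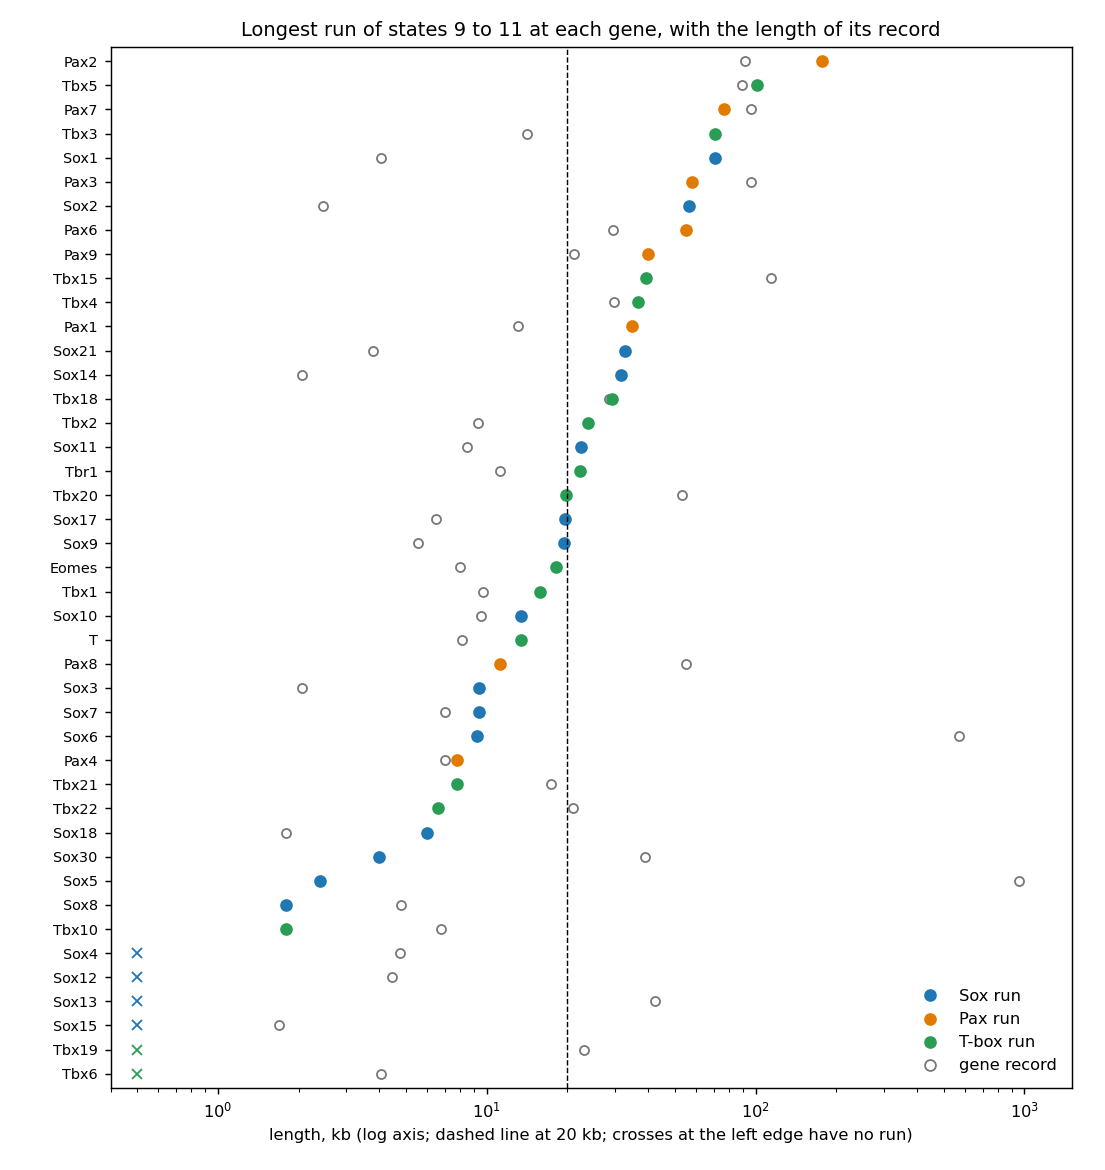
Length of the longest run of states 9 to 11 touching each gene (filled points by family) and of the gene record (open circles), in kb on a log axis, ordered by run length with the longest at the top. The dashed line marks 20 kb, which 18 genes reach, and the 6 crosses at the left edge are genes without a run.

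Long runs were not confined to long genes. The run was longer than the record in 25 of the 37 genes (67.6%) and covered the whole record in 17 (45.9%), beside 24.9% and 13.1% of all genes with a run. It was 23 times the record at Sox2, 17.4 times at Sox1 and 15.3 times at Sox14, whose records span 2.47, 4.04 and 2.07 kb. At Sox5 and Sox6, the longest records, the runs were 2.4 and 9.2 kb. The 37 runs were all distinct, and 32 (86.5%) touched no other protein-coding record, close to the 83.9% of all genes with a run. The 5 that did were those of Pax3, Pax6, Pax9, Tbx2 and T. The runs ended in state 18 at 60 of 74 borders (81.1%), beside 72.8% over all genes with a run, and in 27 genes (73%) at both, beside 57.5%. Inside, 18 runs (48.6%) held both states 9 and 10, beside 21.6% of all genes with a run. Another 10 (27%) held state 10 without 9, beside 17.3%, and 5 (13.5%) held state 9 without 10, close to the 11% of all genes with a run. State 11 alone made up 4 runs (10.8%), those of Sox5, Sox10, Tbx10 and Tbx22, beside 50.1% of all genes with a run.

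CpG content was counted in the 250 bases before the start, the stretch printed above for 6 genes. The median was 11 over the 31 genes and 10 over all protein-coding genes. Among genes that began in states 9 to 11 it was 13.5 (quartiles 7.25 and 17, n = 22), beside 9 (quartiles 2 and 18, n = 3220) for all genes in these states. The states differed among themselves. The 8 starts in state 9 had a median of 17, from 8 in Eomes to 29 in Sox1, close to the 18 of all state 9 starts. The 3 in state 10 (Pax2, Tbr1 and Pax9) had 5, 5 and 7, beside a median of 7 for all state 10 starts. In state 11 the 11 starts had a median of 13, from 3 in Tbx10 to 27 in Sox2, whereas all state 11 starts had a median of 3. The 4 starts in states 3 to 6 had 11 in Sox4, 23 in Sox30, 31 in Sox13 and 35 in Sox12, beside a median of 17 for all such starts. Sox4 is thus the lowest of the 4, and its count is below that of Sox1, Sox11 and Tbx21. The median of the 4 was 27, above the 13.5 of the 22 genes in states 9 to 11. The ratio of observed to expected CpG, which allows for base composition, had a median of 0.892 (range 0.801 to 1.01) in the 4 and 0.647 (quartiles 0.522 and 0.745) in the 22, beside 0.758 and 0.475 for all genes in the same states.

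**Figure D5:**
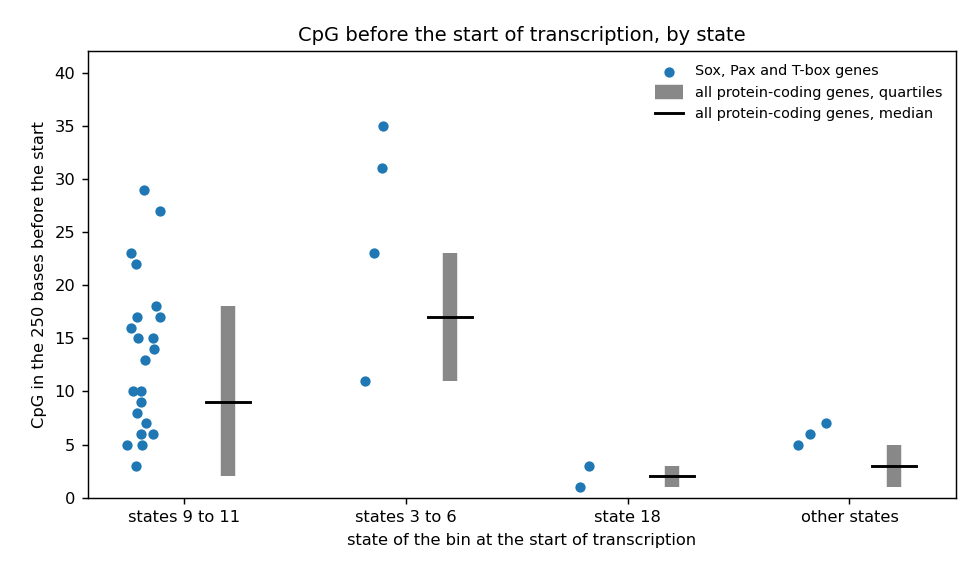
Number of CpG in the 250 bases before the start (vertical axis) by the state of the start bin (horizontal axis), with 1 point per Sox, Pax or T-box gene beside the quartiles (bar) and median (line) of all protein-coding genes. The 22 genes in states 9 to 11 run from 3 to 29 and the 4 genes in states 3 to 6 from 11 to 35.

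Genes that work with these families, and some related genes, were read the same way. A list of 9 heart and limb genes held T-box partners and also limb ligands that were not listed as partners. Of the 9, 8 had an end in states 9 to 11 and 0 in states 3 to 6, with a median of 72.9% of the window in states 9 to 11. Over all protein-coding genes, 23.9% had an end in states 9 to 11 and 47.6% in states 3 to 6. The counts in states 3 to 6 that follow, for the Pax and Sox lists, are near the latter share. Of 10 sine oculis homeobox, Eya and Dach genes, which act with Pax genes, 6 had an end in states 9 to 11 and 5 in states 3 to 6, where Dach1 and Dach2 count in both. The 5 were Six5 (state 3), Eya2 (5), Eya3 (6), Dach1 (3) and Dach2 (5). Of 11 partners of Sox proteins and other HMG box genes, 5 had an end in states 9 to 11 and 5 in states 3 to 6. Those in states 3 to 6 were the Wnt pathway factors Tcf7l1 (6) and Tcf7l2 (4) and the HMG box genes Hbp1 (6), Cic (6) and Bbx (5). The other Wnt pathway factors of this kind, Lef1 and Tcf7, each had an end in state 9, and were named after their values were seen. Set beside 2 other developmental families, the 43 genes took no single place. The non-Hox homeobox set was 77 genes taken by the stem of the symbol. It includes Eng, the endoglin gene, which is not a homeobox gene, so every share of this set counts that gene. An end in states 9 to 11 was found in 79.1% of the 43 genes, in 60% of 40 forkhead genes and in 94.8% of the homeobox set. An end in states 3 to 6 was found in 11.6%, 30% and 3.9%. A run of at least 20 kb was found at 41.9% of the 43 genes, at 37.5% of the forkhead genes and at 71.4% of the homeobox set. For runs of at least 50 kb the shares were 18.6%, 2.5% and 15.6%. Both ends in states 9 to 11 were found in 48.8%, 52.5% and 80.5%, and at least 90% of the window in these states in 25.6%, 30% and 50.6%, in the same order.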

How the data were processed

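H3.3 ChIP was run in HIRA knockout and wild-type HSCs, with inputs. Per the submitters' processing notes, the build was mm10 and the tools included HOMER, MACS2, deepTools and Bowtie2, with no versions; ChromHMM is named only in the names of the deposited files. The authors deposited 1 segmentation in 18 states, in a dense and an expanded form whose states matched in 100% of bins. How the states were learned is not given in the sources used here.

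Gene records, starts and promoters came from RefSeq (GRCm38.p6, the assembly of mm10). Of 21900 protein-coding genes, 108 in the unassembled first 3 Mb of a chromosome and 13 off the map were left out, leaving 21779. The gene table has no strand, so an end can be either end, and strand came from the promoter table. Where several starts were listed, the one nearest the 5′ end of the record was used. Windows took 10 kb on each side, a near neighbour lay within 2 kb, and a run was unbroken states 9 to 11. Computing used Python 3.11.15 with numpy 2.4.6 and was tested on simulated segments.

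The members, the other lists and the classes of states were chosen with earlier results of these data known. States 9 to 11 were grouped after developmental genes that include some members had been seen there, so their share is not independent evidence. Named with values were members with an end or start in states 3 to 6 or no end in states 9 to 11, the 3 highest and lowest of each family by window share, the 5 longest runs and longest state 9 and 10 segments, and members with blood or vessel roles; the remaining members were named after their values were seen. Most counts of members stand beside the share over all protein-coding genes, or over those with the same feature; no tests were made.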

Additional observations from a re-analysis of the deposited data

How the results depend on the processing

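The 5 counts of the 43 genes (34 with an end in states 9 to 11, 5 with an end in states 3 to 6, 1 with both ends in state 18, 24 with at least 50% of the window and 18 with a run of at least 20 kb in states 9 to 11) were recomputed under the alternatives, and 31 of the 37 values stayed within 1.5 times. Taking any bin within 1 kb of an end gave 8 genes with states 3 to 6 (18.6%, beside 51.8% of all genes), adding Sox8, Sox30 and Tbx6 to the 5. It gave the same 34 with states 9 to 11 (79.1%, beside 29%). Taking only the start, in the 31 genes with one, gave 22 in states 9 to 11 (71%, beside 18.4% of all starts), with fewer genes read. State 18 held 2 of these starts (6.45%, beside 19.3%), which is a different measure from both ends. On autosomes alone, which drops Tbx22, 0 had both ends in state 18, beside 11.5% of all genes. With states 9 and 10 only, 20 genes had such an end (46.5%, beside 9.13% of all genes). Under this setting 0 had 50% of the window, beside 0.0321% of all genes. States 9 and 10 alone rarely fill that much of any gene's window, so the window shares rest on state 11. Without flanks 28 genes (65.1%, beside 10.5% of all genes), and with 25 kb on each side 18 (41.9%, beside 5.39%), had 50% of the window. Joining runs across gaps of up to 1 kb gave 21 runs of at least 20 kb (48.8%, beside 5.66%). Leaving out segments of 1 bin gave 17 (39.5%, beside 3.55%). Chosen after seeing the data, records of up to 200 kb alone gave 33, 4, 1, 24 and 18 of 41 genes. Over all genes the shares were 22.7%, 48.1%, 14%, 7.46% and 3.4%. A run minimum of 10 kb, also chosen after seeing the data, gave 26 (60.5%, beside 9.86%). No paired analysis was possible because the map has no columns for samples or replicates. With 1 map and no depth, no spread between animals, no knockout effect and no H3.3 level can be read, and the map gives no level of expression.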

Other observations

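Short sequence motifs were counted in the 250 bases before the start, on both strands, as a description of the 31 matched promoters. The GC box GGGCGG (reverse CCGCCC) was in 17 of 31 (54.8%), beside 42.7% of 17492 protein-coding promoters. CCAAT (reverse ATTGG) was in 15 of 31 (48.4%), beside 36.5%. TATAAA (reverse TTTATA) was in 2 of 31 (6.45%), the promoters of Tbx4 and Tbx6, beside 12.4%. These genes were named after their values were seen, and a match of letters is not a binding site.

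A noncoding record overlapped the gene record in 17 of the 43 genes (39.5%), beside 27.2% of all protein-coding genes, among them Sox1ot at Sox1, Sox2ot at Sox2, Sox6os at Sox6, Pax6os1 at Pax6 and Tbx3os1 at Tbx3. At such genes the states at the gene cannot be told apart from those of the overlapping transcript. The T run also touched the record LOC115486424, the Pax6 run touched Elp4, the Pax9 run touched Slc25a21, the Tbx2 run touched Bcas3 and the Pax3 run touched Gm2102.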
